A study of Sus scrofa with 12 samples.

Results

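The primary cilium is a single, non-motile antenna that grows from the older centriole of the centrosome and carries receptors of growth factor and Hedgehog signalling. Intraflagellar transport (IFT) trains move its cargo. The trains hold the complexes IFT-B and IFT-A. The kinesin KIF3A/KIF3B pulls the trains towards the tip, and the dynein-2 motor DYNC2H1 pulls them back. The BBSome, built of proteins named after Bardet-Biedl syndrome (BBS), moves membrane proteins along the trains, and the centrosomal proteins (CEP) build and anchor the centriole beneath. In muscle, the cells known for primary cilia are mainly the mononuclear cells between the fibres, among them fibro-adipogenic progenitors and satellite cells.

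The genes described were the rows of the count table whose pig gene name was IFT, BBS or CEP followed by a number, together with LCA5, KIF3A, KIF3B, DYNC2H1 and WDR19. These were 60 of 25880 genes, made up of 14 IFT, 8 BBS, 33 CEP and 5 further genes, with suffixed names such as CEP57L1 and CEP85L included. A total of 58 were abundant enough to be tested. CEP170B was listed at 0 in all pigs and CEP15 had 0 to 35 counts per pig. RNA was sequenced from Semimembranosus, a hindlimb muscle of the ham, of 12 Italian Large White pigs at the extremes of intramuscular fat (IMF) content, 6 with high IMF (pigs 1 to 6, aged 234 to 244 days) and 6 with low IMF (pigs 7 to 12, aged 229 to 249 days). Both groups held 3 gilts and 3 barrows by their labels, shared housing and diet, and received no treatment. In such bulk tissue, fewer cells of a type and less RNA per cell cannot be told apart.

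Libraries held 131048805 to 178013997 counts. Y-linked counts went against the labelled sex in 6 pigs, namely pigs 3 and 5 of the high IMF group and pigs 7, 8, 9 and 10 of the low IMF group, so that 4 high and 2 low IMF pigs remained when these were set aside. Y-linked counts were at least 3734 in pigs 3, 4 and 6 of high IMF and pigs 9, 10 and 11 of low IMF. They were at most 6 in pigs 1, 2, 5, 7, 8 and 12. Whether the sex mismatch reaches the IMF labels was not tested, so every high over low value rests on the labels as given. The members at the unadjusted threshold, the class medians and the counts over gene lists are given also on those remaining pigs and without pig 7. The muscle markers ACTA1, CKM and TNNT3 were abundant in all libraries, summing to at least 4337897 normalized counts in each. Of 8 listed markers of motile ciliated cells, 7 were in the table and 3 were tested. DNAI2 and RSPH1, which such cells need, were at 0 in every pig, while CCDC39 had means of 274 in high and 267 in low IMF, DNAI1 30.8 and 37.9, and FOXJ1 25.2 and 28.7. Levels are given as TMM-normalized counts, that is, counts scaled to one common library size. Log2 fold changes (log2FC) are high over low IMF, the opposite of the direction used in the study. Means are over 6 pigs per group and errors are SD unless stated.

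High against low IMF. No gene tested passed the adjusted test with all 12 pigs (0% of 14262 genes called at an adjusted p of 0.05 and an absolute log2FC of 0.58 by edgeR's quasi-likelihood test), and so no member did. The smallest adjusted p was 0.19, which IFT81 shared with genes that are no members. At an unadjusted p of 0.05, 1486 genes were below the threshold, 5.04% of the genes tested being higher in high IMF and 5.38% higher in low IMF. Among the 58 members, 9 were higher in high IMF at this level and 1 was higher in low IMF. The 9 were the IFT-B genes IFT81, IFT57, IFT80 and IFT74, the BBSome gene BBS4, the centrosomal genes CEP135, CEP83 and CEP290, and LCA5. The 1 was CEP164. The study had already named LCA5, IFT81, IFT80, IFT74 and CEP135 from these same libraries, so the count is no separate support for them. The median log2FC was 0.12 over the members and 0.01 over all genes tested, and 45 of 58 members lay above 0 against 51.6% of all genes.

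Without pig 7, 7 members stayed at an unadjusted p of 0.05 or less, all 7 higher in high IMF, beside 4.17% of all genes in that direction and 4.84% in the other. IFT81, LCA5, CEP135, CEP83, IFT57, IFT80 and BBS4 were those 7. CEP164, IFT74 and CEP290 fell just outside the threshold, with an unadjusted p of 0.0507, 0.0508 and 0.0519 and an adjusted p of 0.554 each by edgeR. On the 6 pigs whose Y counts matched the label, 3 members were higher in high IMF, namely IFT81, LCA5 and CEP85L, beside 2.08% of all genes, and 32 of 58 members lay above 0. The DESeq2 Wald test, the kind of test used in the study, placed 2 members, IFT81 and LCA5, at an adjusted p of 0.05 or less, both higher in high IMF, beside 0.324% of all genes in that direction. The study had called LCA5 with this kind of test on the same libraries, and LCA5 was listed by name with that known. Its place among the 2 is thus a repeat of that call and no separate support.

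**Figure D1:**
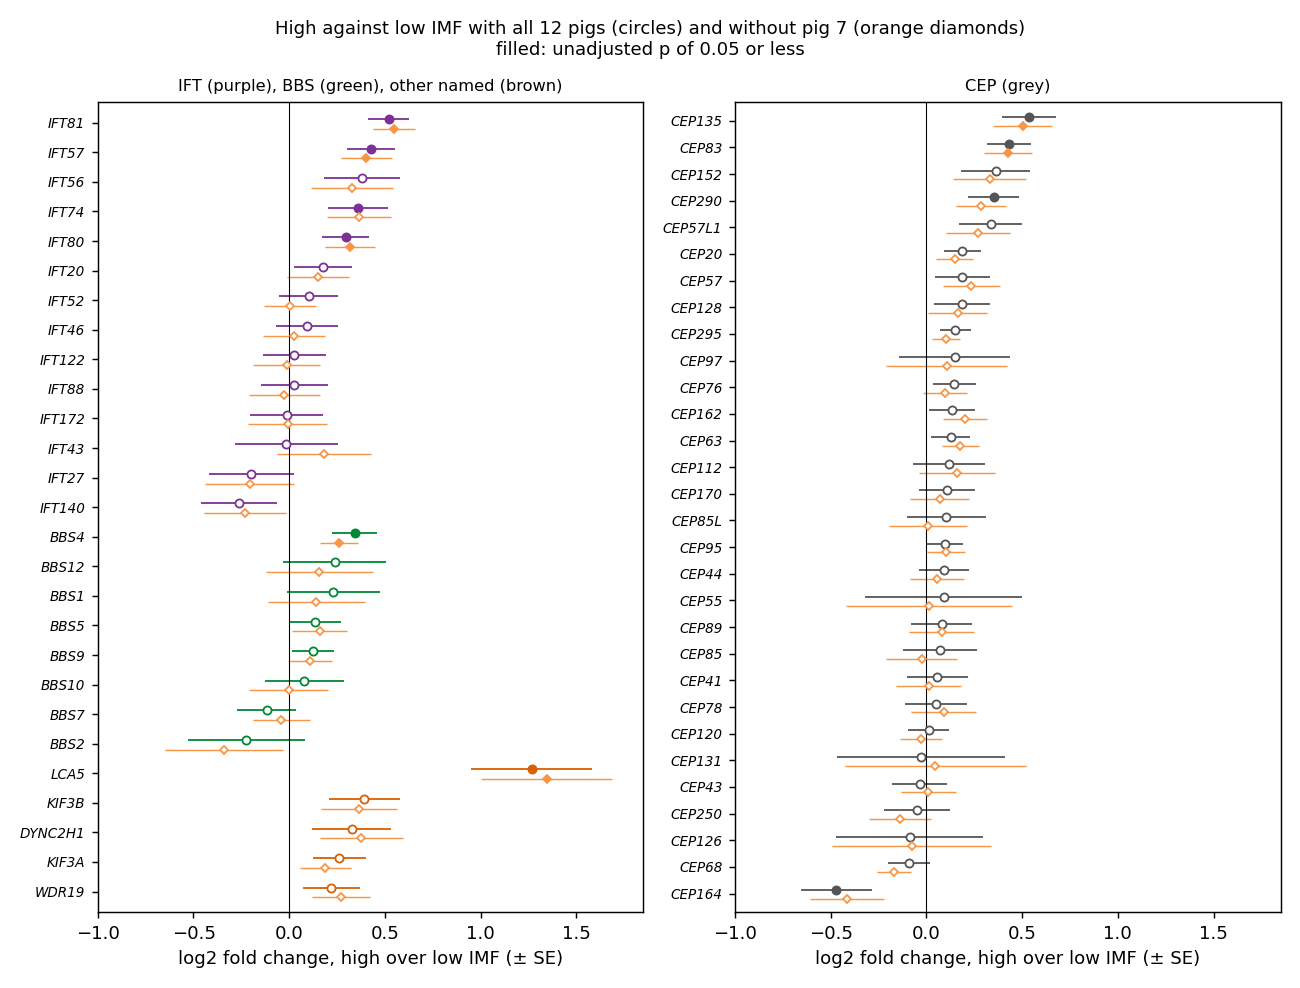
Log2 fold change, high over low IMF, with its standard error (x axis) for 57 of the tested members (y axis), with all 12 pigs as circles and without pig 7 as orange diamonds, filled where the unadjusted p was 0.05 or less. LCA5 stood at 1.27, the other members lay between -0.47 and 0.54, and leaving out pig 7 shifted no member by more than 0.20.

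LCA5. LCA5 encodes lebercilin, a protein of the ciliary axoneme that binds IFT particles, and it was listed by name with earlier results of these data known. Its RefSeq position in Sscrofa11.1 is chr1:86596967-86685073 (ENSSSCG00000004469). The high IMF pigs 1 to 6 had 240.4, 145, 619, 341, 264 and 369 normalized counts. The low IMF pigs 7 to 12 had 177.5, 72.1, 149, 176, 127 and 121. Pig 3 was highest and pig 8 lowest, and the groups overlapped only through pig 2, which fell below 3 of the low IMF pigs. Mean levels were 329.7 ± 162 and 137 ± 39.7, a log2FC of 1.27 ± 0.32 (SE) or 2.41-fold (adjusted p = 0.331 by edgeR). Pig 7 was the highest of the low IMF pigs for LCA5, and without it the log2FC was 1.35 ± 0.34 (adjusted p = 0.39 by edgeR). On the pigs with matching labels it was 1.14, below the unadjusted threshold as in both other fits. The adjusted p of the Wald test was 0.024 with all pigs and ranged from 0.00069 to 0.0831 as each pig was left out, staying at or below 0.05 in 5 of 12 such fits, the one without pig 7 among them. The exons of LCA5 share 631 bases with LOC110260718 on the opposite strand. The libraries were stranded, but the strand setting of the counting was not given in the sources used here, so reads of this pair cannot be assigned apart.

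**Figure D2:**
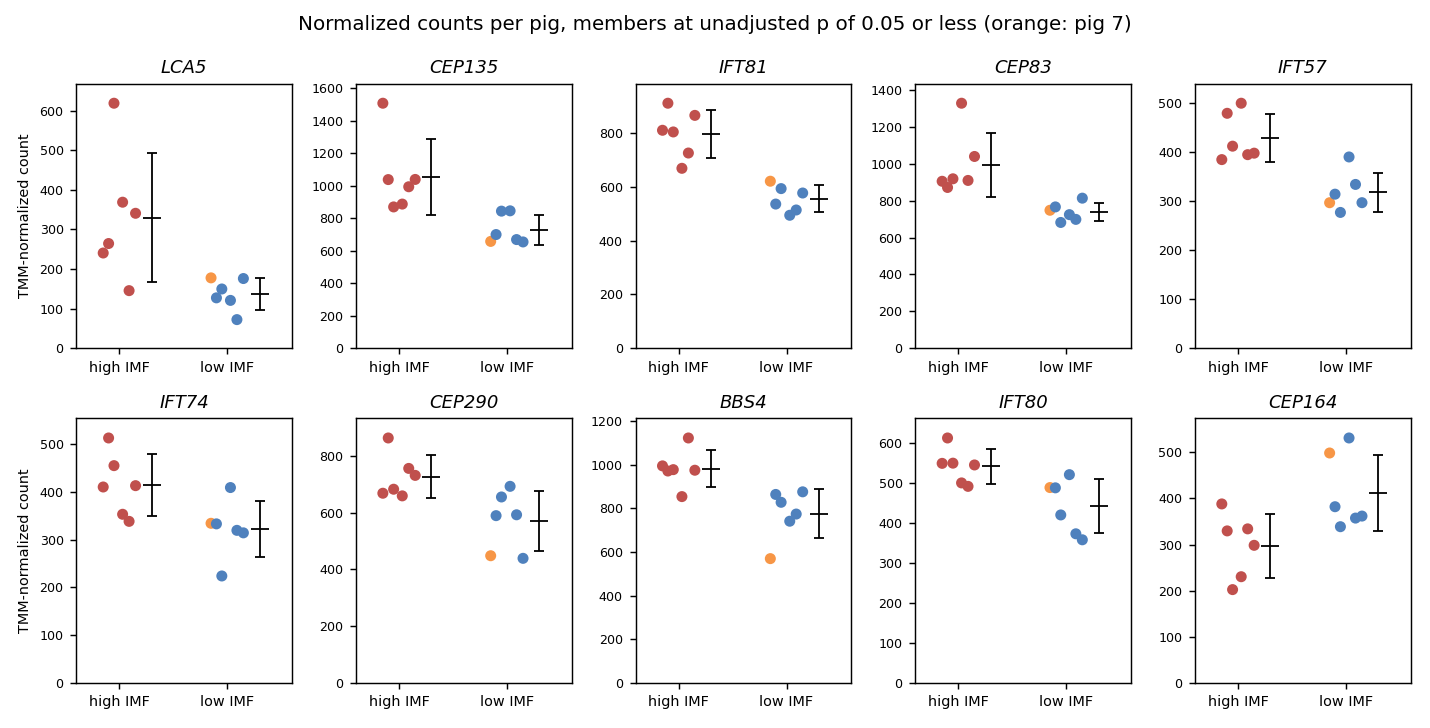
TMM-normalized counts in each pig (points, y axis from 0) for the 10 members at an unadjusted p of 0.05 or less, by group (x axis), with the mean and SD beside the points and pig 7 in orange. The groups were fully apart for IFT81, CEP135 and CEP83, with high above low IMF as in 0.4% of all genes tested, and pig 7 was the lowest point for BBS4.

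IFT genes. Of 14 tested IFT genes, 4 were higher in high IMF at the unadjusted threshold, 28.6% beside 5.04% of all genes. All 4 belong to IFT-B, of which 11 members were tested. IFT81 and IFT74, which form the tubulin-binding module of IFT-B, were both among them. IFT81 (ENSSSCG00000009818, chr14:31425548-31615003) ranged from 669 through a median of 808 to 912 in high IMF and from 495 through 557 to 621 in low IMF. The lowest high IMF pig exceeded the highest low IMF pig, as in 0.4% of all genes tested. Its means were 798 ± 88.9 and 556 ± 49.1, a log2FC of 0.52 ± 0.11 SE (adjusted p = 0.19 by edgeR). Without pig 7, itself the highest low IMF pig, the log2FC was 0.55 ± 0.11, and on pigs with matching labels it was 0.57, still below the unadjusted threshold. Of the members, IFT81 alone kept an adjusted p of 0.05 or less in all 12 leave-one-out fits of the Wald test, the highest being 0.0191, but its log2FC stayed below the 0.58 that the call also required.

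IFT57, which docks at the outer edge of IFT-B, ran from 384 through 404 to 499 in high IMF and from 277 through 305 to 389.6 in low IMF, where only pig 12 reached into the high range. Its log2FC was 0.43 ± 0.13 (adjusted p = 0.398 by edgeR) and 0.40 ± 0.13 without pig 7. IFT80, another peripheral subunit, ran from 491 through 546 to 611 against 357 through 453 to 519.7. Its ranges met at pig 12, and the log2FC was 0.29 ± 0.12 with all pigs and 0.32 ± 0.13 without pig 7, with an adjusted p of 0.441 and 0.542 by edgeR. IFT74 ran from 339 through 412 to 513 against 224 through 327 to 409.5, and pig 12 again stood among the high IMF pigs. Its log2FC of 0.36 was the same to 2 decimals with and without pig 7, and its adjusted p by edgeR was 0.452 and 0.554. On the pigs with matching labels the log2FC of IFT57, IFT80 and IFT74 came to 0.24, 0.04 and 0.02, with no p below 0.05. Pig 12 was 1 of the 2 low IMF pigs in that set.

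The other IFT-B genes did not pass. IFT56 (TTC26 in RefSeq), a subunit needed for some motility proteins, had means of 223 ± 27.2 and 172 ± 55.4, with a log2FC of 0.38 ± 0.20 (adjusted p = 0.521 by edgeR). IFT20, which also works at the Golgi, had 278 ± 49.1 and 245 ± 32.0. IFT52 and IFT46, core subunits, had 426 ± 52.4 against 397 ± 83.3 and 1553 ± 272 against 1455 ± 357. IFT88, long known from cystic kidney models, had 470.4 ± 115 against 462 ± 83.3, and IFT172, at the tip of the train, 469 ± 123 against 473 ± 96.1. The small GTPase IFT27 was the scarcest IFT gene by count, with 44.2 ± 4.60 against 50.7 ± 9.43. IFT88 and IFT172 had a log2FC of 0.03 and -0.01. The 3 IFT-A genes with an IFT name had no p below 0.05 either. IFT122 had 468 ± 122 against 459 ± 53.9, IFT140 had 249 ± 69.0 against 299.6 ± 54.0 and IFT43 had 106 ± 17.9 against 107 ± 45.1. The median log2FC was 0.18 over all 11 tested IFT-B genes, the 4 at the unadjusted threshold included. It was -0.01 over those 3 IFT-A genes, while the IFT-A genes under other names, WDR19, TTC21B and WDR35, had 0.22, 0.37 and 0.47. The median over all 14 IFT genes was 0.10. It became 0.09 without pig 7 and -0.045 on the pigs with matching labels, where 6 of 14 lay above 0.

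BBS genes. BBS4, a BBSome subunit that binds centriolar satellites, was the 1 of 8 BBS genes below the unadjusted threshold, 12.5% beside 5.04% of all genes higher in high IMF. It ran from 854 through 976 to 1123 in high IMF and from 569 through 801 to 876 in low IMF, with pig 7 at 569 well under the other low IMF pigs, which began at 741. The log2FC was 0.34 ± 0.12 (adjusted p = 0.427 by edgeR) and, without pig 7, 0.26 ± 0.10 (adjusted p = 0.542). It was 0.29 on the pigs with matching labels, where the unadjusted p exceeded 0.05.

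The remaining BBSome subunits had groups that overlapped throughout. BBS1 had means of 293 ± 98.0 in high and 250.1 ± 74.6 in low IMF, BBS5 1010.1 ± 159 and 919 ± 145, BBS9 567 ± 35.3 and 520.2 ± 67.1, BBS7 351 ± 47.3 and 381 ± 74.2, and BBS2 605 ± 284 and 706 ± 252. BBS2 varied most of these between pigs, from 314 in pig 1 to 1131 in pig 8. BBS10 and BBS12, chaperonin-like proteins that help assemble the complex, had 199 ± 39.0 against 188 ± 52.8 and 265 ± 78.1 against 225 ± 74.7. The median log2FC of the class was 0.13 with all pigs and without pig 7, and 0.00 on the pigs with matching labels.

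CEP genes. Of 31 tested CEP genes, 3 were higher in high IMF and 1 was higher in low IMF at the unadjusted threshold. These were 9.68% and 3.23%, beside 5.04% and 5.38% of all genes. CEP135 (chr8:55250902-55323396), a scaffold of the centriole wall, ran from 869 through 1015 to 1508 in high IMF and from 654 through 684 to 845 in low IMF. The groups did not overlap, with high above low IMF as in 0.4% of all genes tested, and pig 1 was far above the rest. Its log2FC was 0.54 ± 0.14 (adjusted p = 0.367 by edgeR), and 0.50 ± 0.15 without pig 7 (adjusted p = 0.471). CEP83 (chr5:88770706-88909874), which anchors the distal appendages that tie the centriole to the membrane, ran from 872 through 915 to 1329 against 682 through 736 to 814, again without overlap. Its log2FC was 0.43 with and without pig 7 (adjusted p = 0.367 and 0.466 by edgeR). The exons of CEP83 share 2866 bases with PLXNC1 on the opposite strand, and PLXNC1 had a log2FC of 0.59 ± 0.30 (adjusted p = 0.506 by edgeR). Its part in the CEP83 value was not tested.

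CEP290, a gatekeeper at the base of the cilium, ran from 659 through 707 to 863 against 439 through 591 to 692, with pigs 7 and 10 lowest. The log2FC was 0.35 ± 0.13 (adjusted p = 0.438 by edgeR) and 0.28 ± 0.13 without pig 7. It shares 403 exon bases with C5H12orf29 on the opposite strand. CEP164, a distal appendage protein that recruits the kinase TTBK2, ran the other way, from 202 through 314 to 388 in high IMF and from 339 through 372 to 531 in low IMF. Pigs 12 and 7 were highest at 531 and 498. Its log2FC was -0.47 ± 0.18 (adjusted p = 0.441 by edgeR), and -0.41 ± 0.19 without pig 7. On the pigs with matching labels CEP135, CEP83, CEP290 and CEP164 had log2FC of 0.51, 0.48, 0.13 and -0.55, none below the unadjusted threshold. CEP83 and CEP164, parts of one structure, thus had estimates of opposite sign.

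The 26 further CEP genes described here lay between -0.09 (CEP68, part of the linker between centrioles) and 0.36 (CEP152, which recruits the kinase that starts centriole duplication), and between -0.17 and 0.33 without pig 7. Nearest the threshold were CEP57L1 at 0.34 ± 0.17, CEP152 at 0.36 ± 0.18 and CEP20, FOPNL in RefSeq, at 0.19 ± 0.10, with an adjusted p of 0.496, 0.496 and 0.514 by edgeR. CEP41, CEP43, CEP44, CEP55, CEP57, CEP63, CEP68, CEP76, CEP78, CEP85, CEP85L, CEP89, CEP95, CEP97, CEP112, CEP120, CEP126, CEP128, CEP131, CEP162, CEP170, CEP250 and CEP295 made up the rest. Of all 31, 24 lay above 0 with all pigs and 24 without pig 7, of which 22 did so in both fits. The class median log2FC was 0.10, 0.09 without pig 7 and 0.08 on the pigs with matching labels.

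Motor and retrograde genes. KIF3A and KIF3B, the paired motor subunits of kinesin-2, had means of 1059.6 ± 138 against 884 ± 168 and 687 ± 203 against 523 ± 71.5. Their log2FC were 0.26 ± 0.14 (adjusted p = 0.519 by edgeR) and 0.39 ± 0.18 (adjusted p = 0.479). Without pig 7, the lowest pig for KIF3A, they were 0.19 and 0.36. DYNC2H1, the heavy chain of dynein-2, had 279 ± 77.9 against 223 ± 45.9. WDR19, the IFT-A subunit also called IFT144, had 366 ± 37.1 against 314 ± 58.5. The log2FC of DYNC2H1 was 0.33 ± 0.21 and that of WDR19 0.22 ± 0.15, and without pig 7 they were 0.38 and 0.27. Both groups overlapped for all 4 genes and none passed. With LCA5 the median log2FC of these 5 genes was 0.33, and it was 0.36 without pig 7. On the pigs with matching labels it was 0.15, and KIF3A, KIF3B, DYNC2H1 and WDR19 had log2FC of -0.04, 0.30, 0.15 and 0.12.

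Pig 7. Among the 58 members, pig 7 was the lowest of the 12 pigs for 13 and the highest for 4. These were 22.4% and 6.90% of the members, while over all genes tested it was lowest in 13.6% and highest in 13.5%. In the study this pig had the lowest share of uniquely mapped reads. It was not the only pig to stand out, as pig 5 of high IMF was highest for 12 members, 20.7% beside 7.03% of all genes. The 13 with pig 7 lowest were IFT46, IFT52, BBS1, BBS4, CEP20, CEP57L1, CEP68, CEP76, CEP85, CEP85L, CEP250, CEP295 and KIF3A. The 4 with it highest were IFT43, BBS7, CEP43 and CEP162. The value moving most when pig 7 was left out was that of IFT43, an IFT-A subunit. Pig 7 had 179 normalized counts of IFT43 while the remaining low IMF pigs spanned 61.1 to 139 and the high IMF pigs 88.1 to 136, and the log2FC went from -0.01 ± 0.27 to 0.18 ± 0.25. IFT43 shares 93 exon bases with TGFB3 on the opposite strand. BBS2 had 423 in pig 7 and 531 to 1131 in the rest of that group, and its log2FC went from -0.22 ± 0.31 to -0.34 ± 0.31.

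For IFT52, pig 7 had 266 against 343 to 506, and a log2FC of 0.10 ± 0.16 became 0.00 ± 0.14. For CEP250, a protein that links the centrioles, it had 295 against 386 to 545, and -0.05 ± 0.17 became -0.14 ± 0.16. In CEP85 (3921 against 4092 to 7818), CEP85L (2117 against 2121 to 4756), BBS1 (177.5 against 195 to 375) and BBS10 (137 against 139 to 281) pig 7 lay only just under the next low IMF pig, and the log2FC moved by less than 0.10. In none of these 8 genes was p below 0.05 with or without pig 7. Of the 58 members, 8 changed the sign of their log2FC without pig 7, all with p above 0.05 in both fits.

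A level of each class in each pig was taken as the median, over its tested members, of the log2 deviation from the member's own median over the 12 pigs. For BBS genes pig 7 stood at -0.47, below the other low IMF pigs at -0.16 to 0.10 and the high IMF pigs at -0.11 to 0.23. The CEP level in pig 7 was -0.19, also the lowest, and the other pigs kept between -0.09 and 0.13. For IFT genes pig 7 lay at -0.09, inside the range of low IMF pigs from -0.18 to 0.25, and for the 5 further genes at 0.01. The mean high minus low IMF difference in class level was 0.13 for IFT, 0.12 for BBS, 0.12 for CEP and 0.33 for the further genes. Without pig 7 it was 0.12, 0.04, 0.10 and 0.34. The median log2FC of the BBS genes, by contrast, was the same to 2 decimals with and without pig 7.

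**Figure D3:**
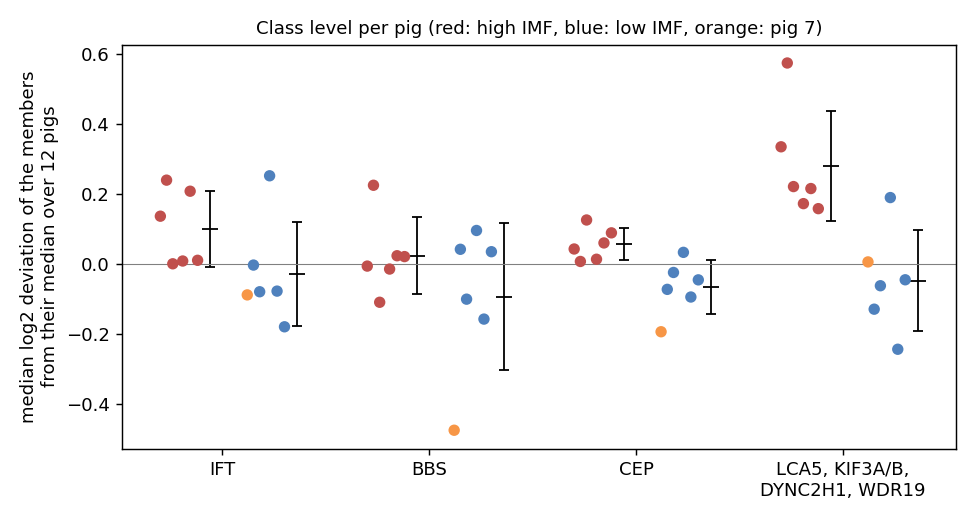
Class level in each pig (points, y axis in log2 units around the members' medians) for the 4 classes (x axis), with the group mean and SD beside the points. Pig 7, in orange, was the lowest pig for BBS (-0.47) and CEP (-0.19) but not for IFT (-0.09) or the further genes (0.01).

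Between pigs, the members' median coefficient of variation was 16.8% in high IMF and 18.4% in low IMF, against 21.4% and 20.8% over all genes tested. Without pig 7 the low IMF value of the members was 16.4%, against 19.1% for all genes. Median variation was 17.7% and 23.8% for BBS genes in high and low IMF, and 16.3% and 18.2% for IFT genes. Compared per length, as normalized counts per kb of RefSeq exon over all 12 pigs, the 57 tested members with a known length ran from 11.8 for CEP55, a protein of dividing cells, to 959 for CEP85. The exons of CEP85 share 757 bases with SH3BGRL3 on the same strand. IFT46 was highest among IFT genes at 837 per kb and IFT27 lowest at 41.6. BBS4, BBS2 and BBS5 were the most abundant BBS genes at 262, 258 and 214 per kb, and BBS10 the least at 23.6. LCA5 stood at 64.7 per kb in high IMF and 26.9 in low IMF, and DYNC2H1 was the scarcest of the further genes at 19.1.

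**Figure D4:**
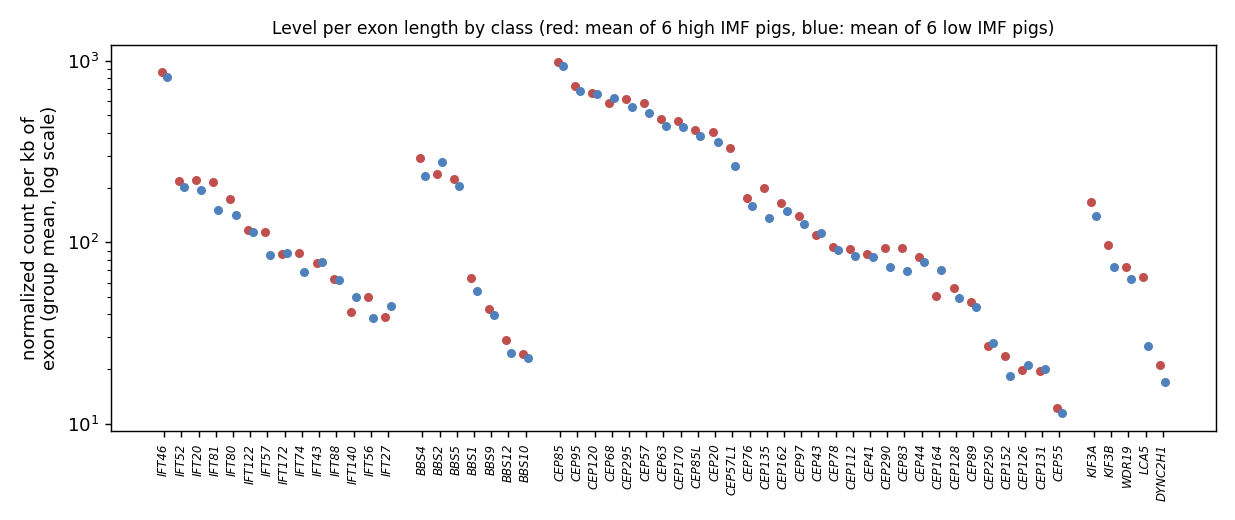
Mean normalized count per kb of exon (y axis, log scale) for 56 of the tested members with a RefSeq length (x axis), in class order, with high IMF in red and low IMF in blue. Levels ran from 11.8 per kb for CEP55 to 959 for CEP85, and LCA5 had the widest gap between the group means.

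Promoters. RFX factors bind the X-box, a pair of inverted half-sites found in front of many ciliary genes. The X-box was searched in both orientations, with 0 to 3 bases between the half-sites, in the 250 bases before the RefSeq start of 58 members and of 19527 genes in all. An exact match was present before 2 of 58 members (3.45%) and before 0.881% of all genes, and with at most 1 mismatch before 6 of 58 (10.3%) and 8.10% of all. CEP41 and CEP112 held the exact form. Their log2FC were 0.06 and 0.12, with an adjusted p of 0.93 and 0.868 by edgeR, and none of the 10 members at an unadjusted p of 0.05 or less, LCA5 and IFT81 included, held a match in this window. The 6 stretches are shown because they are the members' matches to the one motif tied to cilium genes. They are read on the strand of the gene from Sscrofa11.1, with the match in capitals, at chr18:18416102-18416146 and chr12:12815946-12815989 for the exact pair, then chr9:33720885-33720919, chr6:42815354-42815398, chr3:6976990-6977032 and, for a match in the reverse orientation, chr7:99155799-99155840.
CEP41 (exact): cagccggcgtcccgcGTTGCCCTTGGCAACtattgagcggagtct
CEP112 (exact): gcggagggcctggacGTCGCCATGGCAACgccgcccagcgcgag
DYNC2H1 (1 mismatch): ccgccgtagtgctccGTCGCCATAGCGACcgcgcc
CEP89 (1 mismatch): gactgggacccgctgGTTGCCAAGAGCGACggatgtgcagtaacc
CEP20 (1 mismatch): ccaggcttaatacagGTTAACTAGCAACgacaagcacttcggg
IFT43 (1 mismatch): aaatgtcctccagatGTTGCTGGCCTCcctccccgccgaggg

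Other genes of the cilium and centrosome. Of 81 further genes listed for the pathway, 62 were tested. At the unadjusted threshold 9 were higher in high IMF and 3 in low IMF, 14.5% and 4.84%, beside 5.04% and 5.38% of all genes. Without pig 7 the counts were 8 and 2, with ARL3 (0.31) and CDK5RAP2 (-0.27) above the threshold, beside 4.17% and 4.84% of all genes. On the pigs with matching labels they were 0 and 0, beside 2.08% and 1.91%. Transition zone genes, which gate the base of the cilium with CEP290, gave 4 of 19 higher in high IMF and 0 higher in low IMF. They were TMEM107 with a log2FC of 0.85 ± 0.35, TMEM17 with 0.42 ± 0.18, IQCB1, a CEP290 partner, with 0.38 ± 0.16, and RPGRIP1L with 0.32 ± 0.13. Centriole and centrosome genes gave 4 of 18 higher in high IMF and 1 higher in low IMF. SCLT1, which sits on the distal appendages with CEP83 and CEP164, stood at 0.48 ± 0.17, the centriole-wall proteins POC5 and POC1B at 0.40 ± 0.15 and 0.34 ± 0.13, SDCCAG8 at 0.27 ± 0.10, and CDK5RAP2, which gathers microtubule nucleators, at -0.28 ± 0.12.

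Ciliary membrane and signalling genes gave 1 of 13 higher in high IMF and 2 higher in low IMF, beside 5.04% and 5.38% of all genes. ARL3, a GTPase that releases lipidated cargo, had a log2FC of 0.33 ± 0.15. TTBK2, the kinase brought in by CEP164, had -0.28 ± 0.11, with means of 2616 ± 205 and 3175 ± 510.2, and -0.36 without pig 7. GLI3, a Hedgehog transcription factor processed at the cilium, had -0.75 ± 0.27. Of 12 tested partners of the IFT trains and the BBSome, 0 were below an unadjusted p of 0.05, and their log2FC ran from -0.30 for TTC8, a BBSome subunit, to 0.47 for WDR35, with 8 of 12 above 0. None of these genes had an adjusted p of 0.05 or less by edgeR or by the DESeq2 Wald test.

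Markers of other cells were read beside these values. Of 6 genes of fibro-adipogenic stroma, 1 was higher in high IMF at the unadjusted threshold, PDGFRA, the receptor that marks the progenitors, at 0.42 ± 0.17 (adjusted p = 0.441 by edgeR). The others went both ways, with COL1A1 at -0.46, COL3A1 at -0.30, DCN and PDGFRB at 0.07 and LUM at 0.18. The summed stromal level ranged from 157108 to 321976 in high IMF and from 243499 to 389064 in low IMF. Most of it was COL3A1, with means of 181818 in high and 224595 in low IMF. Of 4 endothelial markers 1 was higher in low IMF, CDH5 at -0.55 ± 0.16 (adjusted p = 0.383 by edgeR), while PECAM1, TEK and KDR had -0.16, -0.10 and 0.10. None of the tested markers of adipocytes (6), macrophages (4), satellite cells (3), Schwann cells (4), cycling cells (4), motile ciliated cells (3) or muscle fibres (3) passed the unadjusted threshold with all pigs. Over all genes tested, 5.04% were higher in high IMF and 5.38% in low IMF. Without pig 7 only PDGFRA (0.45) and CDH5 (-0.47) passed it again, beside 4.17% and 4.84% of all genes. On the pigs with matching labels PDGFRA (0.57) and CDH5 (-0.49) were above the unadjusted threshold. PLIN1, a lipid droplet protein of adipocytes, was lower in high IMF at -1.07 and MYF5, a satellite cell factor, higher at 0.98. This stood beside 2.08% of all genes higher and 1.91% lower in high IMF. PAX7 and CALCR, the other satellite cell markers, went the other way from MYF5 at -0.41 and -0.26. The other adipocyte markers had -0.71 (ADIPOQ), -0.67 (CIDEC), -0.65 (FABP4), -1.33 (LEP) and -0.26 (PLIN4). Summed adipocyte markers ran from 38637 to 55609.8 in high IMF and from 20468 to 80082 in low IMF, so the low IMF pigs spanned the high IMF range of this sum. Most of the sum was PLIN4, with means of 37623 in high and 41956 in low IMF. ADIPOQ, the next most abundant of these markers, had 6706 and 6048, so the sum mainly followed 1 gene. The part of such cells in the members' values was not tested.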

How the data were processed

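Semimembranosus muscle of 12 pigs was sequenced as stranded, paired-end mRNA libraries. The deposited table holds raw gene counts. The authors trimmed reads (Trimmomatic), aligned them to Sscrofa11.1 (HISAT2), assembled known transcripts (StringTie) and counted per gene (HTSeq). The strand setting, and whether a count is a read or a pair, were not given in the sources used here. In every pig the total count exceeded the input reads that the study listed for it, and the reason was not tested. Groups came from the labels. Members and lists were chosen with earlier results of these data known. Counts were fitted over all genes kept by filterByExpr (14262) with TMM scaling and edgeR 4.0.16 (R 4.3.3) quasi-likelihood tests, group only, with Benjamini-Hochberg adjustment. A gene was called at an adjusted p of 0.05 and an absolute log2FC of 0.58. Alternatives were DESeq2 1.42.0, limma-voom 3.58.1, other scalings, filters and covariates, and leaving out pigs. Class levels used log2 CPM with a prior count of 2, computed here. The fit was tested on simulated data. Positions, exon lengths and promoters came from RefSeq, matched by symbol for 58 of 60 members, 4 under another name. Every tested IFT, BBS and further gene was named with values, CEP genes at an unadjusted p of 0.05 or less, and the 8 members moving most without pig 7. Genes of the pathway lists were named at the same p, or at either end of a range. TTC21B and WDR35, PLIN1 and MYF5, and the other markers without such a p were named after their values were seen. P-values measure the spread between these pigs. 1 member is counted in the totals but not reported here.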

Additional observations from a re-analysis of the deposited data

Results flagged for a closer look

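In 124 groups of 6 values (58 members and 4 class levels, each in high and low IMF), the gap between an extreme pig and its nearest neighbour, as a share of the group's range, exceeded Dixon's 95% critical value in 7. Chance alone flags about 1 group in 20. Low extremes in high IMF were CEP41 in pig 6 at 207 normalized counts, CEP89 in pig 3 at 201 and IFT27 in pig 1 at 35.0. High extremes in that group were CEP135 in pig 1 at 1508 and CEP83 in pig 6 at 1329. In low IMF, CEP97 in pig 12 at 1791 and IFT20 in pig 11 at 309 were high extremes. Pig 7 was the extreme pig in 0 of the 7. Without pig 1 the log2FC of CEP135, and without pig 6 that of CEP83, were the lowest of their leave-one-out values, at 0.41 and 0.33, and the unadjusted p stayed below 0.05.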

How the results depend on the processing

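The numbers of genes called were 65 by the DESeq2 Wald test and 0 to 1 as each pig was left out of the edgeR fit. A call was made without pig 5 and another without pig 10, and neither was a member. Every other scaling, filter and covariate, and limma-voom, called 0. The covariates were age and labelled sex. Labelled sex went against the Y-linked counts in 6 pigs, so that fit does not adjust for the sex these counts give. Members at an unadjusted p of 0.05 or less numbered 10 with all pigs, 7 to 13 as each pig was left out, and 3 on the pigs whose Y counts matched the label. The share of all genes higher in high IMF at this threshold moved too. It was 5.04% with all pigs, 4.17% without pig 7 and 2.08% on the matching pigs. Over single pigs left out, it was highest without pig 2, with 13 members, and lowest without pig 6, with 11. The member counts alone thus do not separate a change in the members from one over all genes. On the pigs whose Y counts matched the label, the median log2FC of IFT genes was -0.045 and that of the 5 further genes 0.15. These 6 pigs include only 2 of low IMF, and the cause was not tested. Over single pigs left out, the class median log2FC ranged from 0.06 to 0.14 for IFT, 0.10 to 0.16 for BBS, 0.07 to 0.13 for CEP and 0.26 to 0.39 for the further genes. By alternatives added after the data were seen, the Wald test called 43 (without pig 9) to 183 genes (without pig 2). Members were counted at an adjusted p of 0.05 or less alone, without the fold threshold of a call, and numbered 1 to 5. That number was 1 without pig 3, 4, 6, 8, 9 or 11 and 5 without pig 2. With all pigs it was 2, beside 0.324% of all genes higher in high IMF, and 1 of the 2 also met the fold threshold. The share of all genes at the members' threshold is not given for the fits with a pig left out. Of 1217 single-member values under the alternatives, 27 lost an unadjusted p of 0.05 or less, 20 gained it, and 0 of the values with such a p in either fit changed sign. In 67 values, for 23 members, the sign changed with p above 0.05 throughout. Adding up CPM instead of taking medians left the high minus low IMF difference of all 4 classes within 1 SD. No paired analysis was possible because the labels pair no pigs across groups. Depth limits mainly the scarcest members, such as CEP15 with 0 to 35 counts per pig, which could not be tested.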
